A study of Homo sapiens with 4 samples.

Results

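Of 10 widely studied long noncoding RNAs (MALAT1, NEAT1, H19, MEG3, KCNQ1OT1, GAS5, SNHG1, MIR22HG, MIR100HG and NORAD), 2 rose when talin-1 was depleted from Hs578T cells. These were the snoRNA host SNHG1, which was 30.7% higher, and the microRNA host MIR100HG, which was 32.2% higher. Neither call held when SCR library a, siTLN1 library a or siTLN1 library b was left out. Over all 16137 tested genes, 6.07% were called, 2.3% higher and 3.77% lower. For another 7 of the 10 RNAs the difference between groups did not pass the test, and H19 was at the limit of detection. The genes were chosen by name, and each was found in the count table (60721 genes) by its Ensembl identifier with the version removed. All 10 have a row of counts, 9 passed the filter on low counts among 16137 tested genes, and H19 alone has no row in the authors' table of log2 CPM (CPM, counts scaled to library size).

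Long noncoding RNAs are transcripts that act, or are made, without a long open reading frame being translated. MALAT1 gathers in nuclear speckles, NEAT1 is the scaffold of paraspeckles, and H19, MEG3 and KCNQ1OT1 are imprinted, that is, made from the maternal or the paternal copy of their locus only. GAS5 and SNHG1 carry small nucleolar RNAs in their introns, and their spliced transcripts are known substrates of nonsense-mediated decay. MIR22HG and MIR100HG are host transcripts from which microRNAs are cut, and NORAD is a cytoplasmic RNA that binds repressor proteins of the Pumilio family.

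Hs578T is an established line from a human breast carcinoma, kept here in insulin-containing medium. All cells were co-transfected with GFP, and they received either a non-targeting control siRNA (SCR) or an siRNA against TLN1 (siTLN1), each at 1.6 µM, with collection after 48 h. Each group holds 2 biological replicates, and polyadenylated RNA was sequenced from stranded libraries. The count columns name the group and a number that recurs in both groups, written here as library a and library b.

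Total counts ran from 31854322 to 46353297 per library. TLN1, which encodes talin-1, was at 5.55% of its SCR mean in siTLN1, so the libraries bear out their labels. All 8 mesenchymal markers were expressed, VIM among them at 3811 to 3968 CPM. In siTLN1, 3 of the 8 were called lower by edgeR and 0 higher, namely CDH2 (−0.89 on the log2 scale), SPARC (−0.48) and CAV1 (−0.39), and the part of this in the results on the long noncoding RNAs was not tested. Luminal markers were mixed. EPCAM, ESR1, PGR and KRT19 had at most 6 counts in any library and CDH1 at most 40, whereas KRT18 was at 104 to 131 CPM, ERBB2 at 59.8 to 72.7 CPM, KRT8 at 15.1 to 20.7 CPM and GATA3 at 9.75 to 13.8 CPM. None of the 5 tested luminal markers passed the test. The leukocyte list summed to 1.10 to 1.54 CPM, with CD3E and LYZ at 0. In RNA from a whole culture, fewer cells that make a transcript and less of it per cell cannot be told apart. With 2 libraries a group, the smallest p that an exact permutation test allows is 0.333, so p-values come from edgeR's quasi-likelihood test, which shares information on spread across genes, with Benjamini-Hochberg adjustment over all tested genes and a threshold of 0.05.

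Levels of different genes were compared per kilobase of annotated exon, as CPM per kb in the SCR group. NORAD stood first, at 49.4 ± 3.70 CPM per kb (SD, n = 2), and by this measure it also ranked first among the 1975 tested genes of the long noncoding class. GAS5 followed at 17.2 ± 2.40 and SNHG1 at 15.7 ± 1.52 CPM per kb (SD, n = 2 each), and their SCR libraries overlapped. MIR22HG was at 6.0 ± 0.210 CPM per kb, NEAT1 at 4.48 ± 0.906 and MALAT1 at 4.44 ± 0.740 (SD, n = 2 each). NEAT1 and MALAT1 overlapped, so their order is not set by these libraries. MEG3 came next at 3.21 ± 0.445 CPM per kb, then MIR100HG at 2.43 ± 0.0921, and KCNQ1OT1 was far below at 0.0335 ± 0.00131 (SD, n = 2 each).

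The median over all tested genes was 3.16 CPM per kb in SCR and that over tested long noncoding genes was 0.396. Of the 9 tested members, 7 lay above the first value and 8 above the second. Among all tested genes, NORAD, GAS5 and SNHG1 stood at percentiles 95.3, 84.8 and 83.4. MIR22HG (63.3), NEAT1 (57.0), MALAT1 (56.9), MEG3 (50.3) and MIR100HG (45.2) lay nearer the middle. By CPM without division by length, NORAD, NEAT1, GAS5, MEG3, MIR100HG and SNHG1 stood at percentiles 96.0, 87.1, 84.0, 82.1, 80.7 and 78.2. MALAT1, MIR22HG and KCNQ1OT1 stood at 68.4, 52.3 and 30.6 by that measure. Per kb of all annotated exon, then, abundant describes most of these RNAs only beside other long noncoding genes. Even there it describes neither KCNQ1OT1, which ranked 1944 of 1975 long noncoding genes by CPM per kb, nor H19. MALAT1 ranked 81 and NEAT1 80 on the same scale, ranks that depend on the length used. The main 3′ end of MALAT1 and the long form of NEAT1 carry no poly(A) tail, so libraries from polyadenylated RNA can undercount both.

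The choice of length moved some levels. MIR100HG has 28649 exon bases over its annotated isoforms, but its longest GENCODE 29 transcript has 3370, and dividing by the latter gave 20.7 instead of 2.43 CPM per kb. GAS5 went from 17.2 to 49.0 CPM per kb in the same way, with 4842 exon bases against 1698, next to 49.9 for NORAD. MEG3 went from 3.21 to 5.74 CPM per kb. Ranks among tested long noncoding genes moved too, from 1 to 5 for NORAD, from 81 to 149 for MALAT1, from 80 to 150 for NEAT1, from 47 to 84 for MIR22HG and from 166 to 20 for MIR100HG. The order of levels is thus not settled by gene-level counts.

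**Figure D1:**
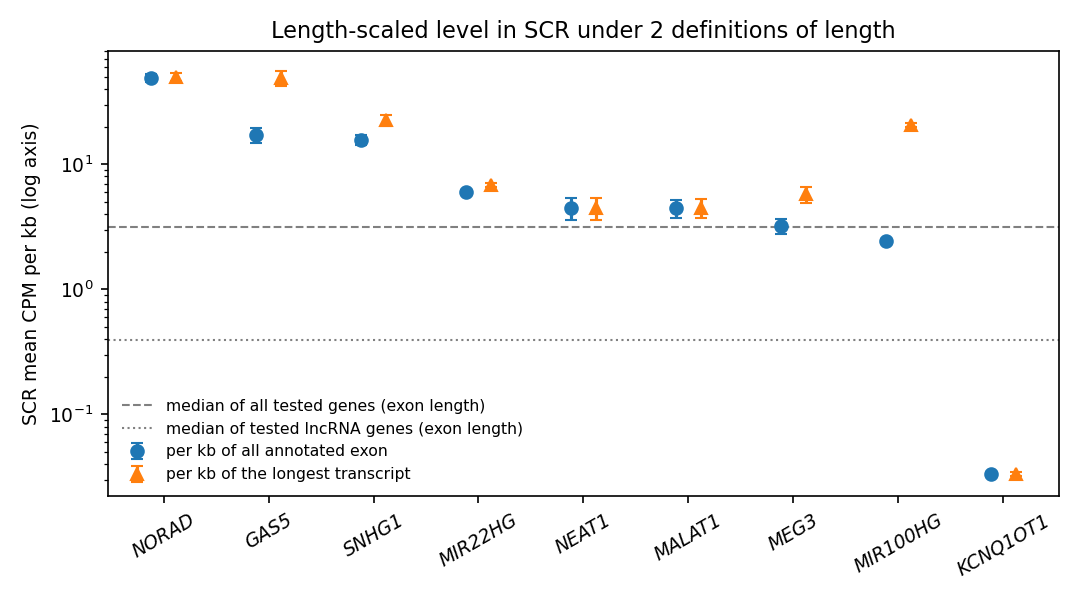
SCR mean CPM per kb (log axis, error bars SD over 2 libraries) of the 9 tested long noncoding RNAs, per kb of all annotated exon (circles) and per kb of the longest transcript (triangles), with the medians by exon length of all tested genes (dashed line) and of tested long noncoding genes (dotted line). NORAD is highest by exon length at 49.4 CPM per kb, KCNQ1OT1 is lowest at 0.0335, and MIR100HG moves from 2.43 to 20.7 between the definitions.

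Among the microRNA hosts, MIR100HG (ENSG00000255248.9; GRCh38, chromosome 11, 122028325 to 122556721, minus strand) rose. Its level was 67.8 and 71.5 CPM in SCR libraries a and b against 88.5 and 95.5 CPM in siTLN1 libraries a and b. Both siTLN1 libraries lay above both SCR libraries. SCR averaged 69.6 CPM (SD 2.64, n = 2) and siTLN1 92.0 CPM (SD 4.94, n = 2). The log2 difference between siTLN1 and SCR was 0.40 (standard error 0.094, 95% interval 0.20 to 0.60), and edgeR's quasi-likelihood test gave an adjusted p of 0.0171.

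The fold change of MIR100HG stayed positive when any library was left out, but the call needed all libraries except SCR b. It was 0.36 (adjusted p = 0.0637) without SCR library a, 0.46 (adjusted p = 0.0729) without siTLN1 library a and 0.35 (adjusted p = 0.131) without siTLN1 library b, and 0.44 (adjusted p = 0.0170) without SCR library b, by edgeR. In these fits the single library left in a group is assumed to vary like the other group. Of its exon bases, 0.789% are shared with other genes, none on the opposite strand.

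The mature microRNAs of the MIR100HG locus lie in its introns, between 404425 and 456931 bases from the 5′ end of the gene. They are shown because a reader may know the host only through them, with the seed (bases 2 to 8) in capitals, 5′ to 3′, from RefSeq (GRCh38.p14). MIR22HG holds its microRNA inside a counted exon and is shown for comparison.
hsa-miR-100-5p: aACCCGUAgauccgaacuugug
hsa-let-7a-5p: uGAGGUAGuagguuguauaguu
hsa-miR-125b-5p: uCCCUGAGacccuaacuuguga
hsa-miR-22-3p: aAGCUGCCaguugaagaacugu

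These 4 seeds differ from each other, so the arms belong to separate seed families. The hairpin gene MIR125B1 had 1 count in SCR library a and MIRLET7A2 likewise, and neither had more than 1 in any library, while MIR100 and MIR22 had 0 in all 4. Libraries of polyadenylated RNA do not capture mature microRNAs, so the rise of MIR100HG says nothing here about the level of these microRNAs.

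MIR22HG (ENSG00000186594.14; chromosome 17, 1711493 to 1717174, minus strand) was at 17.5 and 18.3 CPM in SCR libraries a and b and at 21.1 and 18.4 CPM in siTLN1 libraries a and b. SCR b and siTLN1 b were nearly equal, so the groups barely separate. In log2 units siTLN1 minus SCR was 0.14 (standard error 0.11, 95% interval −0.10 to 0.38; edgeR, adjusted p = 0.553). The hairpin of miR-22 covers 2.85% of its exon bases, and reads there touch both genes.

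Among 18 tested genes of 28 other microRNA host noncoding genes, none passed the test, with 9 positive and 9 negative log2 fold changes and a median of −0.0014 beside 0.0033 over all tested genes. MIR503HG, MIR9-3HG, MIR202HG, MIR205HG and MIR223HG had no counts.

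The snoRNA host SNHG1 (ENSG00000255717.7; chromosome 11, 62851984 to 62855953, minus strand) rose by a similar amount. It was at 58.2 and 66.8 CPM in SCR libraries a and b against 81.3 and 82.0 CPM in siTLN1 libraries a and b. The siTLN1 libraries were close to each other and both above SCR. SCR averaged 62.5 CPM (SD 6.05, n = 2) and siTLN1 81.7 CPM (SD 0.479, n = 2). On the log2 scale siTLN1 minus SCR was 0.39 (standard error 0.098, 95% interval 0.18 to 0.59; edgeR, adjusted p = 0.0266).

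Leaving out SCR library a lowered the log2 fold change of SNHG1 to 0.29 (adjusted p = 0.176), and the call was also lost without siTLN1 library a (0.39, adjusted p = 0.169) and without siTLN1 library b (0.38, adjusted p = 0.0953). Without SCR library b the value was 0.49 (adjusted p = 0.00609, all by edgeR). Of the exon bases of SNHG1, 15.4% are shared with 7 snoRNA genes on the same strand, all with 0 counts. A read that touches exons of more than 1 gene is left unassigned without the option for overlaps, and the header lists no such option, so reads from these stretches would be missing from the SNHG1 count in both groups.

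GAS5 (ENSG00000234741.8; chromosome 1, 173858559 to 173868882, minus strand) is the other snoRNA host among the members. It was at 74.9 and 91.3 CPM in SCR libraries a and b and at 93.1 and 105 CPM in siTLN1 libraries a and b. All siTLN1 values lay above SCR, but SCR b and siTLN1 a differed by less than the replicates of either group. The log2 difference between siTLN1 and SCR was 0.25 (standard error 0.11, 95% interval 0.024 to 0.49), and the adjusted p was 0.199 by edgeR (0.0327 before adjustment). Without SCR library b alone it passed, at 0.41 (adjusted p = 0.0361). On the opposite strand, the exons of GAS5-AS1 cover 0.867% of the exon bases of GAS5. Pairing libraries by their number, which no label states, led to a call for GAS5, as given in the last section.

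**Figure D2:**
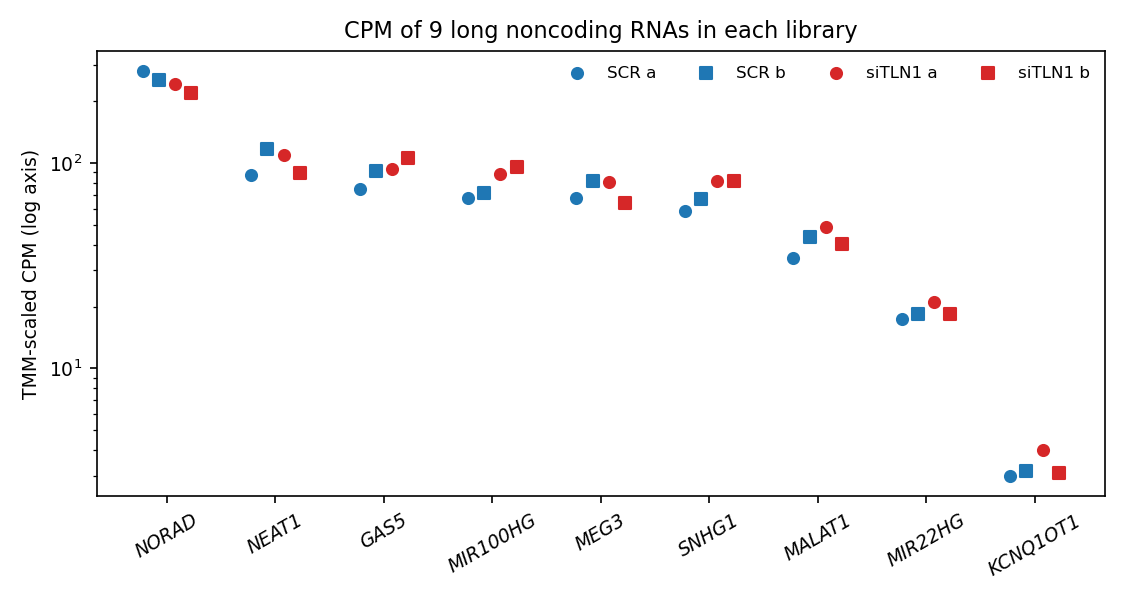
TMM-scaled CPM (log axis) of the 9 tested long noncoding RNAs in SCR libraries (blue) and siTLN1 libraries (red), circles for library a and squares for library b. MIR100HG and SNHG1 sit higher in both siTLN1 libraries, NORAD is highest of all in every library at 219 to 281 CPM, and KCNQ1OT1 is lowest at 2.99 to 4.01 CPM.

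Other snoRNA host noncoding genes gave a wide spread of values with 1 call among 24, beside 6.07% of all tested genes called. SNHG4 rose from a mean of 5.26 CPM in SCR (SD 0.276, n = 2) to one of 9.14 CPM in siTLN1 (SD 2.18, n = 2), or 0.79 on the log2 scale (edgeR, adjusted p = 0.0118). It was 0.53 (adjusted p = 0.196) without siTLN1 library a, and 14% of its exon bases are shared with genes on the same strand. None of the other 23 passed, and among better expressed hosts the log2 fold changes went both ways, with SNHG5 at 0.14 (95% interval −0.18 to 0.45), ZFAS1 at 0.11 (−0.12 to 0.35), SNHG29 at 0.0074 (−0.20 to 0.21) and SNHG18 at −0.21 (−0.42 to 0.012). The list had 15 positive and 9 negative values and a median of 0.044. Genes of nonsense-mediated decay, the pathway that degrades spliced GAS5 and SNHG1, gave 0 calls among 18 by edgeR, with 12 positive and 6 negative values and a median of 0.038. Its central helicase UPF1 had a log2 fold change of 0.014 with a 95% interval of −0.18 to 0.21.

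NORAD (ENSG00000260032.2; chromosome 20, 36045618 to 36051018, minus strand) had its 4 libraries in the opposite order to GAS5. It was at 281 and 252 CPM in SCR libraries a and b and at 243 and 219 CPM in siTLN1 libraries a and b. Both siTLN1 libraries lay below both SCR libraries, but SCR b and siTLN1 a differed by less than the replicates did. In log2 units siTLN1 minus SCR was −0.21 (standard error 0.098, 95% interval −0.41 to 0.00071), and the adjusted p was 0.254 by edgeR (0.0507 before adjustment). It ranged from −0.28 to −0.13 over the fits with 1 library left out. NORAD shares no exon base with another gene. In a fit that paired libraries by their number, a pairing no label states, NORAD was called lower, as given in the last section.

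NORAD is known for its repeated Pumilio elements, and these are shown for that reason. The element TGTANATA, where N is any base, was searched on the sense strand of the longest GENCODE 29 transcript of each tested gene, with overlapping copies counted. NORAD holds 15 copies in 5339 bases, 10 of them TGTATATA, 4 TGTAAATA and 1 TGTACATA. Of 1570 tested genes with a longest transcript within 10% of that length, 44.8% hold at least 1 copy and 0.127% hold at least 15, the most being 16. Among 15968 tested genes with a GENCODE 29 transcript, 5 besides NORAD hold as many copies or more. From the copies in NORAD, 5 spread along the transcript and covering each form of the element are printed 5′ to 3′. Each has 8 flanking bases on each side and the element in capitals, and is named by its position in the transcript.
NORAD 761: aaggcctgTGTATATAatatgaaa
NORAD 1241: tcacatttTGTAAATAcctttttg
NORAD 1451: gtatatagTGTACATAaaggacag
NORAD 2972: ccctactgTGTATATAgcggacaa
NORAD 4599: agcctattTGTAAATAcctttgtt

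NEAT1 holds 6 copies of the element, KCNQ1OT1 9, and SNHG1 and MEG3 1 each, whereas the longest transcripts of MALAT1, H19, GAS5, MIR22HG and MIR100HG hold none. Per kb, NORAD had 2.81 copies, against 0.361 for SNHG1 and less for the others. PUM2, a repressor that binds this element, had a log2 fold change of 0.017 (95% interval −0.19 to 0.22). None of the 6 genes in the list of Pumilio proteins and NORAD partners passed edgeR's test.

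**Figure D3:**
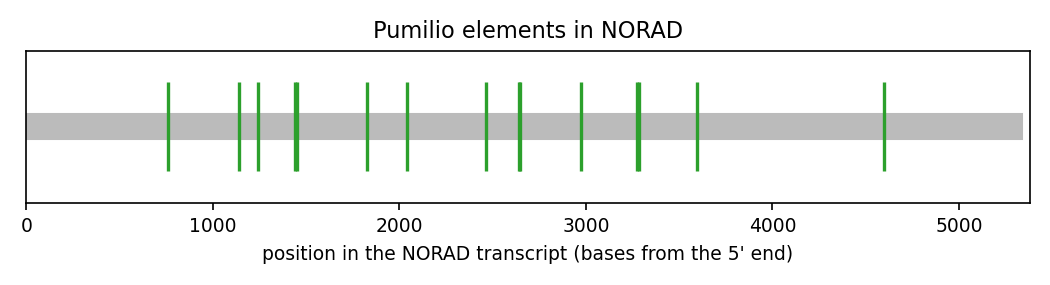
Positions of the 15 copies of TGTANATA (green lines) along the NORAD transcript (grey bar, 5339 bases, 5′ end at the left). The copies run from position 761 to position 4599.

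The nuclear body RNAs did not separate the groups. MALAT1 (ENSG00000251562.8; chromosome 11, 65497688 to 65506516, plus strand) was at 34.6 and 43.8 CPM in SCR libraries a and b and at 49.0 and 40.2 CPM in siTLN1 libraries a and b. The groups overlapped, and siTLN1 minus SCR was 0.18 on the log2 scale (standard error 0.13, 95% interval −0.094 to 0.46; edgeR, adjusted p = 0.482). It ranged from 0.023 without SCR library a to 0.37 without SCR library b. A gene on the opposite strand covers 4.49% of the exon bases of MALAT1 and had 0 counts. As with SNHG1, reads from the shared bases would be left unassigned, so this count cannot show whether that gene is transcribed there.

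NEAT1 (ENSG00000245532.9; chromosome 11, 65422774 to 65445540, plus strand) was at 87.4 and 117 CPM in SCR libraries a and b and at 110 and 89.9 CPM in siTLN1 libraries a and b. SCR held both the lowest and the highest value. On the log2 scale siTLN1 minus SCR was −0.033 (standard error 0.14, 95% interval −0.33 to 0.26; edgeR, adjusted p = 0.931), and its sign turned on leaving out either SCR b (0.19) or siTLN1 b (0.11). The short and long forms of NEAT1 start at the same site, and gene-level counts cannot tell them apart.

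Genes for the proteins of these bodies gave 1 call, beside 6.07% of all tested genes called. Of 18 paraspeckle proteins, 1 passed: HNRNPH3, an RNA-binding protein, fell from a mean of 175 CPM in SCR (SD 8.20, n = 2) to one of 135 CPM in siTLN1 (SD 12.1, n = 2), or −0.37 on the log2 scale (edgeR, adjusted p = 0.0294). Its value was −0.32 (adjusted p = 0.132) without SCR library b and −0.28 (adjusted p = 0.369) without siTLN1 library a. It was −0.36 (adjusted p = 0.0765) when low counts were not filtered. The core paraspeckle proteins SFPQ (−0.074, 95% interval −0.27 to 0.12) and NONO (0.17, −0.027 to 0.37) had log2 fold changes that did not pass. None of 20 nuclear speckle proteins passed edgeR's test, although 18 had positive values, with a median of 0.11 beside 0.0033 over all tested genes. The speckle scaffold SRRM2 had one of the larger values, 0.25 on the log2 scale (95% interval 0.029 to 0.47; edgeR, adjusted p = 0.188). It was at 572 and 569 CPM in SCR libraries a and b and at 741 and 618 CPM in siTLN1 libraries a and b. For SON, at 0.23 (−0.0071 to 0.47), the groups overlapped. Other values of the list were smaller or negative, with SF3B1 at 0.055 (−0.14 to 0.25) and U2AF2 at −0.098 (−0.30 to 0.10).

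Of the imprinted RNAs, H19 (ENSG00000130600.19; chromosome 11, 1995176 to 2001470, minus strand) had 0 and 2 counts in SCR libraries a and b and 1 count in each siTLN1 library. A count of 0 in SCR library a allows up to 0.0944 CPM (3 counts), which covers counting error only, and no fold change can be given. Its neighbour IGF2, which is expressed from the other parental copy, had 0 and 0 counts in SCR and 1 and 3 in siTLN1.

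MEG3 (ENSG00000214548.18; chromosome 14, 100779410 to 100861031, plus strand) was expressed, at 67.3 and 81.9 CPM in SCR libraries a and b and 80.6 and 64.0 CPM in siTLN1 libraries a and b. Here too the groups overlapped, with siTLN1 b lowest and SCR b highest. The log2 difference between siTLN1 and SCR was −0.047 (standard error 0.12, 95% interval −0.32 to 0.22; edgeR, adjusted p = 0.894), and its sign turned on leaving out SCR b (0.10) or siTLN1 b (0.11). Downstream in the same imprinted cluster, MEG8 was at 3.70 CPM in SCR and 4.08 CPM in siTLN1, while the protein-coding DLK1 had 0 counts in all 4 libraries.

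KCNQ1OT1 (ENSG00000269821.1; chromosome 11, 2608328 to 2699994, minus strand) is an unspliced transcript that runs antisense to KCNQ1 and silences neighbouring genes in cis. It had 95 and 110 counts in SCR libraries a and b and 146 and 146 in siTLN1, or 2.99 and 3.16 against 4.01 and 3.11 CPM. Only siTLN1 library a stood above the rest. In log2 units siTLN1 minus SCR was 0.20 (standard error 0.19, 95% interval −0.20 to 0.60; edgeR, adjusted p = 0.628), and it was 0.017 without siTLN1 library a. Because counting ignored strand, reads from introns of KCNQ1 would be counted here. The exons of KCNQ1 had 0 and 1 counts in SCR and 0 in both siTLN1 libraries. The part of intronic reads in the KCNQ1OT1 count was not tested.

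Among 17 imprinted neighbours on 11p15 and 14q32, 7 could be tested and 1 passed, beside 6.07% of all tested genes. PHLDA2, an imprinted gene near KCNQ1OT1, fell from a mean of 61.2 CPM in SCR (SD 10.0, n = 2) to one of 44.6 CPM in siTLN1 (SD 6.09, n = 2), or −0.46 on the log2 scale with an adjusted p of 0.0498 by edgeR. It was −0.28 (adjusted p = 0.223) without SCR library b and −0.32 (adjusted p = 0.371) without siTLN1 library a. It also missed the threshold when low counts were not filtered (−0.44, adjusted p = 0.0998) and with limma-trend (−0.46, adjusted p = 0.0536). CDKN1C, another target of KCNQ1OT1, had 4 and 3 counts in SCR and 7 and 14 in siTLN1.

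**Figure D4:**
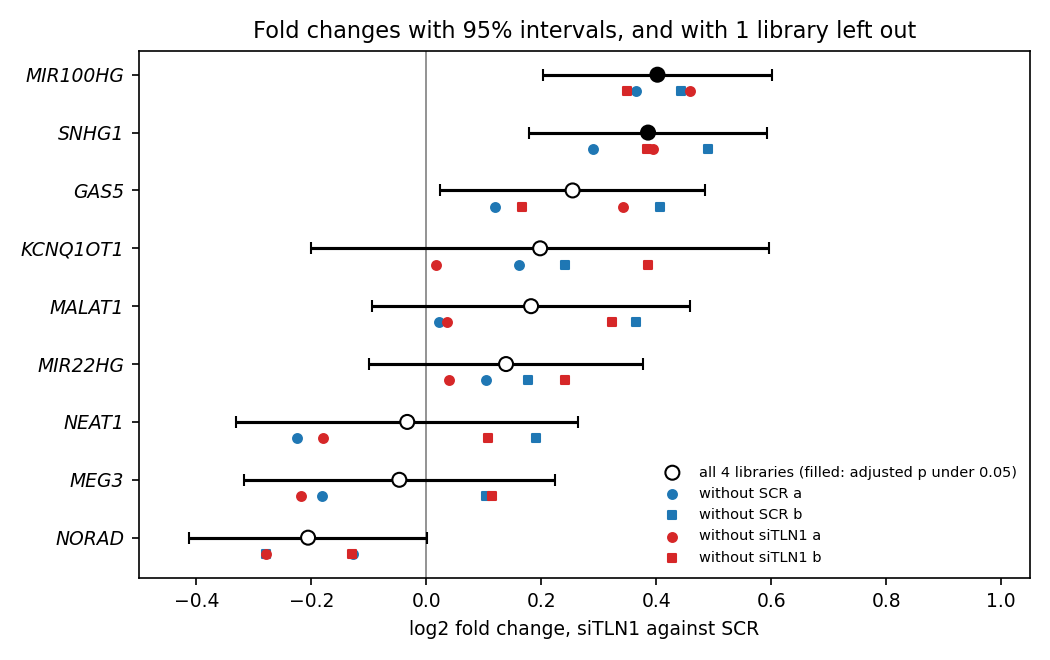
Log2 fold change of siTLN1 against SCR for the 9 tested long noncoding RNAs with 95% intervals (large circles, filled where the adjusted p is under 0.05), and the same with each library left out (small symbols). MIR100HG and SNHG1 are filled, at 0.40 and 0.39, and the values of NEAT1 and MEG3 lie on both sides of 0 as libraries are left out.

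Over the members, 2 of 9 tested were called, against 6.07% of all tested genes (2.3% higher and 3.77% lower), 7.84% of tested genes at 5 CPM or more and 2.58% of tested long noncoding genes (0.81% higher and 1.77% lower). The groups did not overlap for 5 members, and 48.4% of all tested genes and 43.5% of tested long noncoding genes also had no overlap. The members' median log2 fold change was 0.18 beside 0.0033 over all tested genes and −0.042 over long noncoding genes. Positive values were found for 6 members and negative values for 3.

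Several members varied more between replicates than between groups, and they did so in the same libraries. MALAT1, NEAT1, MEG3 and KCNQ1OT1 were each higher in SCR library b and siTLN1 library a than in both other libraries. This order, singled out after the values were seen, was held by 4 of 9 members, by 14.1% of tested long noncoding genes and by 8.45% of all tested genes. NEAT1 differed by 0.42 on the log2 scale between SCR libraries b and a, and by −0.29 between siTLN1 libraries b and a. For MEG3 the same differences were 0.28 and −0.33, and for MALAT1 0.34 and −0.29. KCNQ1OT1 held the order only narrowly, with differences of 0.078 and −0.36. Its SCR library b was below the gene mean (−0.059) and little above siTLN1 library b (−0.083). GAS5 and NORAD followed another order, with library b above a in both groups for GAS5 (0.29 and 0.18) and below it for NORAD (−0.15 and −0.15).

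**Figure D5:**
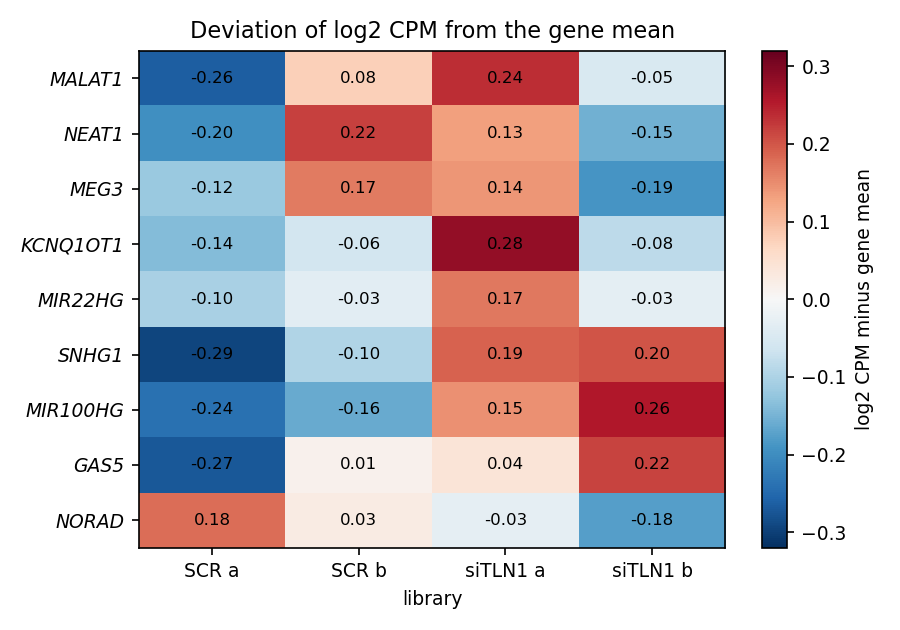
Deviation of log2 CPM from the gene's mean over the 4 libraries (columns) for the 9 tested long noncoding RNAs (rows), with the value in each cell. MALAT1, NEAT1 and MEG3 are highest in SCR b and siTLN1 a, whereas SNHG1 and MIR100HG are above their mean in both siTLN1 libraries. KCNQ1OT1 is above its mean in siTLN1 a only.

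The 7-base word GACAACA was also searched in the members. It was chosen with earlier results of these data known, so fold changes split by it are no test of the word. Over 15968 tested genes with a GENCODE 29 transcript, the median log2 fold change was −0.043 for the 3473 that hold it in the longest transcript and 0.015 for the rest, a description that makes no allowance for transcript length. The longest transcripts of SNHG1, MIR100HG, GAS5, MIR22HG and H19 lack the word on the sense strand, although 3 of 39 annotated transcripts of MIR100HG hold it. MALAT1, MEG3 and NORAD hold 1 copy each, NEAT1 2 and KCNQ1OT1 4. Of tested genes within 10% of the length of NORAD, 29.4% hold it. None of the members that hold the word passed edgeR's test. Their log2 fold changes were −0.21 for NORAD, −0.047 for MEG3, −0.033 for NEAT1, 0.18 for MALAT1 and 0.20 for KCNQ1OT1. Any part of the word in these values was not tested. The copies in NORAD, MALAT1 and MEG3 are printed 5′ to 3′ with the word in capitals, named by position in the transcript.
NORAD 1480: agtcctaattGACAACAtctagtcttt
MALAT1 7493: tggcaggagaGACAACAaagcgctatt
MEG3 12317: ccccccaactGACAACAtttgggctca

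In the long noncoding class as a whole, 51 of 1975 tested genes were called, 16 higher and 35 lower. The 6 with the smallest p among those at a mean of 5 CPM or more included LINC02984, which fell from a mean of 87.9 CPM in SCR (SD 7.82, n = 2) to one of 54.9 CPM in siTLN1 (SD 2.52, n = 2), or −0.68 on the log2 scale (edgeR, adjusted p = 0.000474). MSC-AS1 fell from 47.8 ± 3.04 to 29.1 ± 0.580 CPM (SD, n = 2 each), with 12.7% of its exon bases shared with the opposite strand, where strand-blind counting leaves its level uncertain. ZNF407-AS1 (−0.83), LINC01547 (−1.0) and LINC03072 (−0.80), given as log2 fold changes, also fell. ENSG00000285722 rose by 0.46 on that scale, but not past the threshold without siTLN1 library a (0.49, adjusted p = 0.0803) or without siTLN1 library b (0.43, adjusted p = 0.0768). Of 19 tested among 26 other well-known long noncoding RNAs, 1 passed. LUCAT1, a stress-induced RNA, fell from a mean of 6.59 CPM in SCR (SD 0.468, n = 2) to one of 3.33 CPM in siTLN1 (SD 0.0465, n = 2), or −0.98 on the log2 scale (edgeR, adjusted p = 0.00118). TUG1, also highly expressed (237 CPM in SCR), had a log2 fold change of −0.16 (adjusted p = 0.438).

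By the Euclidean distance between log2 CPM values centred over the 4 libraries, among 10485 genes at 5 CPM or more, the genes most like SNHG1 were SV2A (distance 0.0326), IFFO2 (0.0341) and CALCOCO1 (0.0345). Those most like MIR100HG were SIX4 (0.0344), ALG8 (0.0448) and B4GALT3 (0.0515). With 4 libraries many genes lie this close, and the distances are a description only.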

How the data were processed

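Hs578T polyadenylated RNA was sequenced in 2 SCR and 2 siTLN1 libraries. The authors deposited raw counts per gene from featureCounts 2.0.0 in paired-read mode on GENCODE 33 (GRCh38), with no option for strand, multiple mapping or overlapping genes, per the file headers. Exon length is a further column of that deposited table, in a unit other than counts. STAR 2.7.9a and edgeR 3.34.1 are named in the submitters' processing notes. The authors also deposited log2 CPM for 16137 genes. When checked, this gene set equalled that kept by filterByExpr, and 100% of values, sorted within groups, equalled TMM-scaled log2 CPM with a prior count of 2. Count columns were mapped to groups only. Unmapped columns numbered 0, as did rows that name no gene.

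Groups were taken from the titles. Genes were kept by filterByExpr (minimum count 10, minimum total 15), scaled by TMM and compared with edgeR 4.0.16 in R 4.3.3 (glmQLFit, robust, current method, and glmQLFTest). CPM are TMM-scaled and SDs are over 2 libraries. The procedures were tested on simulated data. Symbols were found for 60402 of 60721 genes, and gene types for 58548 came from GENCODE 29, which differs from the release counted.

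The members, lists and word were chosen with earlier results of these data known. Genes named by rule are all members, TLN1 and up to 3 called genes per list by p. The rule also names 6 further long noncoding genes called at a mean of 5 CPM or more by p, and 3 genes most like each called member. Other genes of the lists, such as UPF1, SRRM2, PUM2 and TUG1, are given as examples outside this rule. The other settings tried were scaling by RLE or by totals alone, testing without a filter, a filter at a mean of 10 counts, DESeq2 1.42.0, limma-trend (limma 3.58.1) on the deposited log2 CPM, removal of the gene-length trend (lowess span 0.3), a replicate block, leaving out each library, and length by longest transcript. Python 3.11.15, pandas 2.3.3 and matplotlib 3.10.9 served for tables and figures. Values of a few list genes and of some overlapping genes are not reported here.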

Additional observations from a re-analysis of the deposited data

How the results depend on the processing

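With all 4 libraries and no replicate block, the 9 tested long noncoding RNAs gave the same sign and the same call in all 63 values, and SNHG1 and MIR100HG were the members called in each setting. Leaving out a library gave 0 to 3 called members, 324 to 1100 called genes and 18 to 55 called long noncoding genes. NEAT1 ranged from −0.23 to 0.19 and MEG3 from −0.22 to 0.11 in those fits, which reversed both. Called long noncoding genes numbered 51, against 80 when scaled by totals alone, 30 without a filter and 24 by DESeq2, which gave no adjusted p for 3755 genes; the cause was not tested. The count of all called genes, 980, was 663 without a filter and 1406 with the length trend removed.

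Deviations of same-numbered libraries correlated at r 0.19 across all tested genes and 0.54 across those at 5 CPM or more, but no label says that a number marks a shared preparation. With the replicate block, limma-trend called 3645 genes, 193 long noncoding genes and 4 members, adding GAS5 (0.26, adjusted p = 0.000998) and NORAD (−0.21, adjusted p = 0.00757). With the length trend removed as well, the replicate block gave 3655, 197 and 4.

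Per kb of the longest transcript, SCR levels were 49.0 for GAS5, 22.6 for SNHG1, 20.7 for MIR100HG, 6.82 for MIR22HG and 5.74 CPM per kb for MEG3. Depth leaves H19 without a fold change, at 0 to 2 counts per library.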
